A study of Homo sapiens with 21 samples.

Results

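The values described here are the messenger RNA levels of 9 DNA damage response genes, XPC, DDB2, POLH, ASCC3, DDB1, XPA, ERCC1, ERCC2 and ERCC5, in hTERT-HPNE cells under 2 kinds of genotoxic stress. The 9 genes were chosen by symbol, from nucleotide excision repair and the lesion tolerance pathways beside it, out of 23368 genes listed, and all 9 had values that varied between libraries. hTERT-HPNE is a human pancreatic duct line that was immortalized with telomerase and is not transformed, and it is a single line. One group was untreated and was collected at 0 h. The other 6 groups were given fresh medium with 300 μM H2O2, an oxidant, or 400 ng/ml NCS (neocarzinostatin, which breaks both DNA strands), and RNA was taken after 4, 8 or 24 h. Each of the 7 groups had 3 biological replicates, 21 RNA-seq libraries in all. No untreated cells of the later times were analysed here, so the effect of a treatment against untreated cells cannot be told apart from that of time in fresh medium. All of the cells were kept in medium with EGF and puromycin.

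Nucleotide excision repair removes lesions that distort the double helix, such as the photoproducts of ultraviolet light. XPC senses the distortion, and DDB2, which works with DDB1 in a ubiquitin ligase, finds lesions that XPC binds poorly. The TFIIH complex, which holds the helicase ERCC2, then opens the strands, and XPA checks the lesion. The nuclease ERCC4, with its partner ERCC1, cuts on the 5′ side, and the nuclease ERCC5 cuts on the 3′ side. The gap is then filled by replicative polymerases. POLH is the translesion polymerase eta, which copies past lesions that stop other polymerases, and ASCC3 is the helicase of the ASCC complex, which works with ALKBH3 on alkylated DNA and acts on transcription after damage.

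The gene spans, in GENCODE v29 on GRCh38, were chr3:14145147-14178783 for XPC, chr11:47214465-47239240 for DDB2, chr6:43576150-43615660 for POLH and chr6:100508194-100881372 for ASCC3. They were chr11:61299451-61342596 for DDB1, chr9:97674909-97697357 for XPA and chr13:102807146-102876001 for ERCC5. ERCC1 at chr19:45407333-45478828 and ERCC2 at chr19:45349837-45370918 lie close to each other on the minus strand. The authors' files use hg19, so these positions were assigned by symbol.

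The deposited values are rLog values, made by the authors with DESeq2 from read counts. They are on a log2 scale, are corrected for library size and are shrunk, most strongly for genes with few reads, so folds taken from them are conservative. They are not per length, so levels of the repair genes are compared between samples and not between genes. The ranks of marker levels given below are rough for the same reason. The counts were not given, so the depth is unknown and no interval that rests on it was made. Library medians lay between 7.145 and 7.189. The second replicate of H2O2 at 8 h stood apart, with a distance of 14.74 to its nearest library over all varying genes, against 8.94 to 11.44 for the other libraries. Without it, each of the 9 genes kept its direction at 8 h of H2O2 against untreated cells, and the calls of XPA and ERCC1 changed there, as given below. Of 8 duct and HPNE markers, VIM (16.79 to 17.25), TERT (13.86 to 14.37), NES (11.78 to 12.28) and KRT18 (11.38 to 11.85) had high values. KRT8 (7.73 to 8.28), KRT7 (6.61 to 7.17) and SOX9 (5.78 to 6.48) had middle values, above those of 55%, 48.7% and 44.7% of genes. The duct keratin KRT19 had low values (0.58 to 0.73), above those of 22.1% of genes. None of 14 acinar, islet, blood and endothelial markers exceeded 2.42 in any library. In bulk RNA, fewer cells with a transcript and less of it per cell cannot be told apart.

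Groups were compared with limma in one fit of all libraries, with Benjamini-Hochberg adjusted p-values over 19694 varying genes, and a gene is said to have risen or fallen where its adjusted p was under 0.05. Differences are rLog differences on the log2 scale, given with the standard error (SE). A two-sided exact permutation test of 3 libraries against 3 cannot go below p = 0.1. XPC, DDB2, POLH and ASCC3 carried most of the change, and the core factors DDB1, XPA and ERCC1 varied little. The group means of XPC spanned 0.65, more than those of 91% of all genes tested, which include genes with low values. The spans were 0.51 for DDB2, 0.54 for POLH, 0.56 for ASCC3, 0.37 for ERCC2 and 0.30 for ERCC5. They were 0.20 for XPA, 0.15 for ERCC1 and 0.11 for DDB1, and the span of DDB1 exceeded that of 29.5% of genes.

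Against untreated cells, NCS raised 4 of the 9 genes at 4 h, 6 at 8 h and 6 at 24 h and lowered 0. Of all genes tested, 7.47%, 10.5% and 19.6% rose in these comparisons and 9.72%, 13.3% and 18.4% fell. The shares of all genes, here and below, include genes with low values. All 9 members had a mean value of at least 5, as did 11672 other genes, and shares among such genes alone are not given. H2O2 raised 2 and lowered 2 at 4 h, where 26.2% of all genes rose and 19.7% fell. It raised 3 and lowered 2 at 8 h, against a background of 18.8% and 18.6%, and raised 4 and lowered 2 at 24 h, against 20.2% and 19.9%. Without the second replicate of H2O2 at 8 h, 4 rose and 1 fell at that time. With H2O2 the genes that rose were POLH and ERCC1 at 4 h, then XPC, POLH and ASCC3, and by 24 h XPC, DDB2, ASCC3 and ERCC5. ERCC2 fell at all 3 times of H2O2, and the other falls were those of ASCC3 (4 h), XPA (8 h) and POLH (24 h). XPC was the single member with a rise over 0.58, in H2O2 at 24 h, where 1.59% of all genes had one, and in NCS at 4 h (0.457%) and 8 h (0.442%). In the other comparisons 2.25% (H2O2, 4 h), 1.38% (H2O2, 8 h) and 0.944% (NCS, 24 h) of all genes had such a rise. No member had an absolute difference over 1, the limit that the methods of the study put on fold changes from counts. The shares of all genes past it were 0.696%, 0.518% and 1.61% for H2O2 and 0.218%, 0.34% and 1.5% for NCS in order of time. All 6 comparisons share the untreated libraries.

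**Figure D1:**
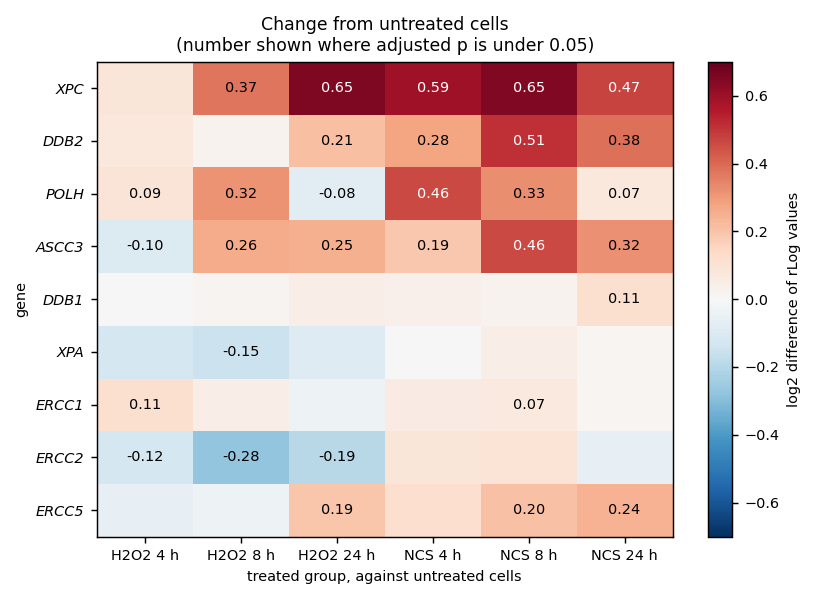
Each cell gives the log2 difference of mean rLog values between a treated group (columns) and untreated cells (rows are genes, n = 3 libraries per group), in red for higher and blue for lower, with the value printed where the limma adjusted p was under 0.05. XPC has a value in 5 of 6 columns, the largest being 0.65, and ERCC2 has a fall in the 3 H2O2 columns.

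XPC, the distortion sensor, rose in 5 of the 6 treated groups. Its rLog value in untreated cells was 10.18, 10.20 and 10.16 (mean 10.18 ± 0.016, SD, n = 3). After NCS it was 10.71, 10.77 and 10.85 at 4 h, then 10.80, 10.85 and 10.85 at 8 h and finally 10.62, 10.64 and 10.71 at 24 h. After H2O2 it was 10.30, 10.21 and 10.30 at 4 h, then 10.58, 10.49 and 10.60 at 8 h and finally 10.79, 10.86 and 10.85 at 24 h. Every treated library was above all 3 untreated ones. With NCS the gene was near its 8 h level by 4 h. With H2O2 the mean was higher at each later time, and the libraries at 24 h overlapped those of NCS at 4 and 8 h. The rise over untreated cells was 0.59 (SE 0.038, adjusted p = 2.66e-09) with NCS at 4 h, a 1.51-fold difference on the rLog scale, and 0.65 at 8 h. At 4, 8 and 24 h of H2O2 the difference was 0.086, 0.37 and 0.65, with adjusted p-values of 0.0723, 2.91e-07 and 6.2e-11, and the last corresponds to 1.57-fold. The difference at 4 h of H2O2 passed with quantile normalization (0.127, adjusted p = 0.00916) and with a minimum mean of 5 (adjusted p = 0.0496). It also passed without the second H2O2 replicate of that time (adjusted p = 0.0255). The steps of H2O2 from 4 to 8 h (0.29) and from 8 to 24 h (0.28) both passed the test. With NCS the step from 4 to 8 h was 0.057 (adjusted p = 0.424, 95% interval -0.022 to 0.14), and the gene then fell by 0.18 to 24 h (adjusted p = 0.00132). In the order of group means, H2O2 at 24 h, NCS at 8 h, NCS at 4 h and NCS at 24 h each overlapped the next, and H2O2 at 8 h, H2O2 at 4 h and untreated cells followed without overlap. XPC shares 318 of its 4798 exon bases with LSM3 on the other strand, and LSM3 fell at 24 h of both treatments, by 0.45 and 0.41, and did not pass at the earlier times.

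DDB2, the lesion-binding partner of DDB1, rose with NCS at every time and with H2O2 at 24 h. Untreated libraries had rLog values of 10.34, 10.36 and 10.34. NCS libraries had 10.61, 10.63 and 10.63 at 4 h, then 10.83, 10.89 and 10.86 at 8 h and finally 10.66, 10.73 and 10.79 at 24 h. H2O2 libraries had 10.39, 10.41 and 10.46 at 4 h, then 10.39, 10.33 and 10.39 at 8 h and finally 10.51, 10.64 and 10.52 at 24 h. The NCS libraries thus lay above all untreated ones, and those of H2O2 at 8 h overlapped them. The rises with NCS were 0.28 (SE 0.034, adjusted p = 1.05e-05), 0.51 (adjusted p = 2.83e-09) and 0.38 (adjusted p = 3.43e-08), the highest being 1.43-fold at 8 h. After 4 h of H2O2 the libraries lay above the untreated ones, and the difference was 0.073 (adjusted p = 0.0939). This difference passed with quantile normalization (0.12, adjusted p = 0.00588). It was 0.027 after 8 h (adjusted p = 0.637), with a 95% interval from -0.046 to 0.099, and the rise after 24 h was 0.21 (adjusted p = 5.14e-05). DDB2 rose by 0.24 from 4 to 8 h of NCS and fell by 0.13 afterwards, while in H2O2 it rose by 0.18 from 8 to 24 h. DDB1, its partner and the adaptor of CUL4 ubiquitin ligases, did not pass the test in 5 of 6 comparisons, with library values between 13.016 and 13.197 in the whole series. It rose by 0.11 with NCS at 24 h (SE 0.024, adjusted p = 0.00087), where its libraries had 13.15, 13.15 and 13.20 against 13.05, 13.02 and 13.09 in untreated cells. DDB1 shares 521 of its 13950 exon bases with TKFC on the other strand, listed here as DAK, which rose by 0.36 in the same comparison, and its part in the DDB1 value was not tested.

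At 8 h of H2O2, XPC, POLH and ASCC3 had risen, by 0.37, 0.32 and 0.26, and the difference of DDB2 did not pass. Without the second replicate of that group the differences were 0.41, 0.35 and 0.30, and that of DDB2 was 0.046 (adjusted p = 0.39). Whether the genes differed from one another in these changes was not tested.

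POLH, the translesion polymerase, peaked early with NCS and at 8 h with H2O2, and was back near its starting level at 24 h. Its untreated values were 11.20, 11.21 and 11.22. With NCS they were 11.67, 11.67 and 11.68 at 4 h, then 11.53, 11.51 and 11.57 at 8 h and finally 11.27, 11.28 and 11.30 at 24 h. With H2O2 they were 11.26, 11.30 and 11.34 at 4 h, then 11.54, 11.46 and 11.57 at 8 h and finally 11.11, 11.12 and 11.16 at 24 h. The libraries of NCS at 4 h were above all others, and those of H2O2 at 24 h were below all others. In NCS the rise was 0.46 at 4 h (SE 0.025, adjusted p = 3.49e-10), 0.33 at 8 h and 0.072 at 24 h, the last with an adjusted p of 0.0302. In H2O2 the gene rose by 0.089 and then 0.32, with adjusted p-values of 0.00772 and 1.79e-08, before it fell by 0.078 at 24 h (adjusted p = 0.019). With library medians aligned, the gene no longer passed at 4 h of H2O2 (0.074, adjusted p = 0.0543). From 8 to 24 h it fell by 0.40 in H2O2 (adjusted p = 5.34e-10). In NCS it fell by 0.14 from 4 to 8 h and then by 0.25 (adjusted p = 2.97e-07). The small differences at 24 h did not survive every setting. The difference with H2O2 was -0.031 after quantile normalization (adjusted p = 0.341) and had adjusted p-values from 0.0629 to 0.0722 without untreated replicate 3 or H2O2 replicate 1 or 2, and the rise with NCS had adjusted p-values from 0.0529 to 0.106 when 1 of 4 libraries was left out, untreated replicate 1 or 2 or NCS replicate 2 or 3.

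ASCC3, the ASCC helicase, fell at 4 h of H2O2 and rose in the other 5 treated groups. Untreated libraries had 12.18, 12.22 and 12.15. NCS libraries had 12.37, 12.35 and 12.40 at 4 h, then 12.63, 12.62 and 12.67 at 8 h and finally 12.50, 12.50 and 12.52 at 24 h. H2O2 libraries had 12.07, 12.11 and 12.07 at 4 h, then 12.46, 12.37 and 12.50 at 8 h and finally 12.43, 12.41 and 12.46 at 24 h. None of the treated groups overlapped the untreated libraries. At 4 h of H2O2 it fell by 0.098 (SE 0.028, adjusted p = 0.00673), and the rise from there to 8 h was 0.36 (adjusted p = 8.22e-09), the largest step of ASCC3 in either treatment. Against untreated cells it was up by 0.26 and 0.25 with H2O2 at 8 and 24 h and by 0.19, 0.46 and 0.32 with NCS at 4, 8 and 24 h (adjusted p = 6.85e-10 at 8 h). Of its partners ASCC1, ASCC2, TRIP4 and ALKBH3, 4 of 4 rose with H2O2 at 24 h, by 0.21, 0.14, 0.14 and 0.34, and 3 of 4 rose with NCS at 8 h and at 24 h. Of all genes, 20.2% rose with H2O2 at 24 h, and 10.5% and 19.6% with NCS at 8 and 24 h. None of the 4 passed at 4 h of either treatment. At that time 26.2% of all genes rose and 19.7% fell with H2O2, and 7.47% rose and 9.72% fell with NCS.

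**Figure D2:**
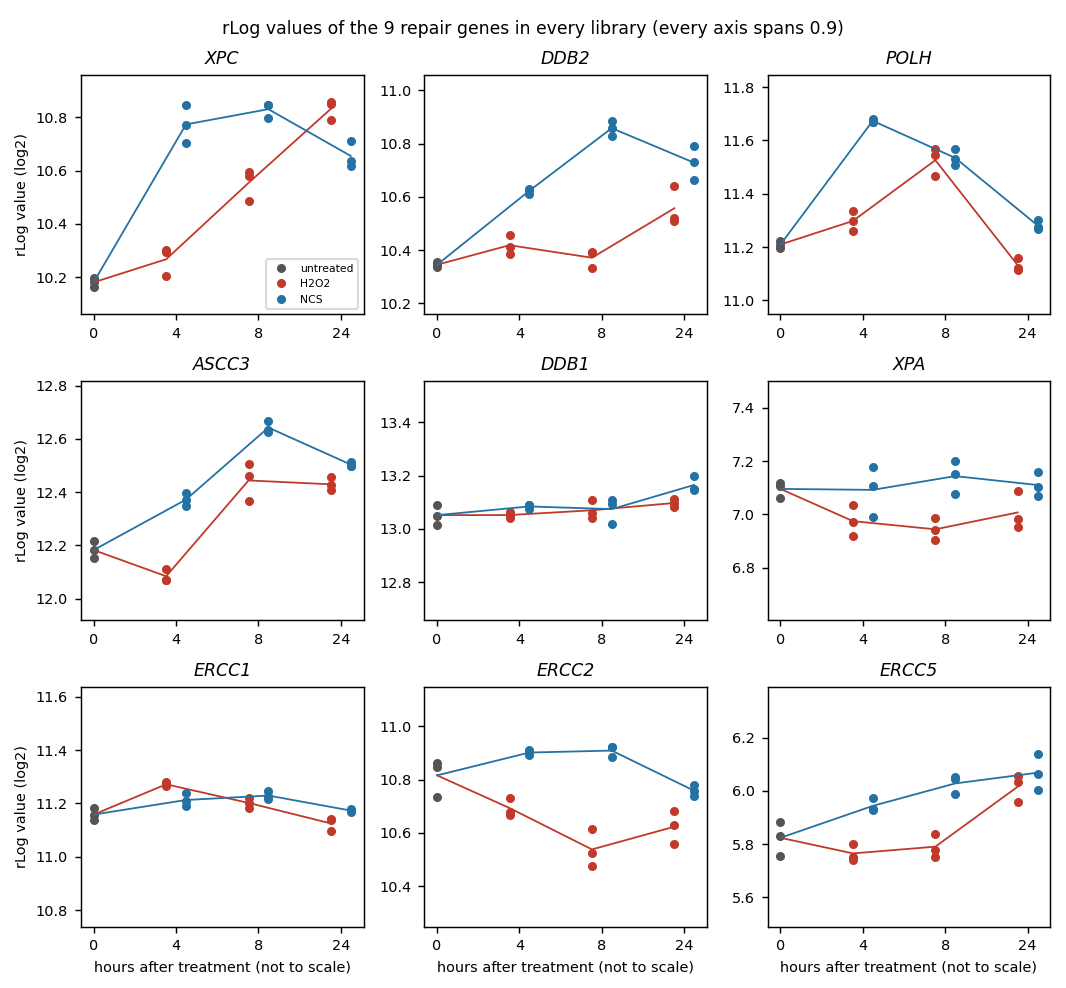
Points are rLog values (log2 scale) of single libraries against hours after treatment (axis not to scale), grey for untreated, red for H2O2 and blue for NCS, and lines join the means of 3 libraries. The XPC lines cross between 8 and 24 h and end at 10.83 with H2O2 and 10.66 with NCS, the DDB2 line of H2O2 stays near the untreated level until 8 h, and DDB1 and ERCC1 are nearly flat.

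ERCC2, the TFIIH helicase, fell with H2O2 and did not pass with NCS in the reported fit. Untreated libraries had 10.74, 10.86 and 10.85, the first of them lower than the others. H2O2 libraries had 10.68, 10.73 and 10.67 at 4 h, then 10.47, 10.62 and 10.52 at 8 h and finally 10.68, 10.63 and 10.56 at 24 h. NCS libraries had 10.90, 10.89 and 10.91 at 4 h, then 10.88, 10.92 and 10.92 at 8 h and finally 10.74, 10.76 and 10.78 at 24 h. All 9 H2O2 libraries were below the untreated range, and those of NCS at 4 and 8 h were above it. With H2O2 it fell by 0.12, 0.28 (SE 0.037) and 0.19, with adjusted p-values of 0.0117, 8.38e-06 and 0.000323. The call at 4 h was lost without untreated replicate 2 (adjusted p = 0.0633) or 3 (adjusted p = 0.052). That call was also lost with quantile normalization (adjusted p = 0.0519) and in a fit of only the groups compared (adjusted p = 0.0543). With NCS the differences were 0.086, 0.093 and -0.058, with adjusted p-values of 0.144, 0.0852 and 0.269. The rise at 8 h of NCS passed with quantile normalization (0.128, adjusted p = 0.0201) and among genes with a mean of at least 5 (adjusted p = 0.0407). The fall at 24 h of NCS passed without untreated replicate 1 (-0.098, adjusted p = 0.0478). ERCC2 shares 535 of its 6450 exon bases with KLC3 on the other strand. KLC3 had 7.806, 7.929 and 7.953 in untreated cells. At 4, 8 and 24 h its means were 7.993, 7.681 and 7.768 with H2O2 and 8.045, 7.969 and 7.841 with NCS. The part of KLC3 in the ERCC2 values was not tested.

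ERCC5, the nuclease of the 3′ cut, rose at 24 h of both treatments and at 8 h of NCS. Its untreated values were 5.76, 5.83 and 5.88, and at 24 h they were 5.96, 6.06 and 6.03 with H2O2 and 6.003, 6.062 and 6.139 with NCS. Both groups at 24 h lay above the untreated range. The rises were 0.19 (SE 0.046, adjusted p = 0.00229) and 0.24 (adjusted p = 0.00027), and that of NCS at 8 h was 0.20 (adjusted p = 0.00267). At 4 and 8 h of H2O2 the differences were -0.059 and -0.033, and the libraries overlapped the untreated ones. In the annotation, 5213 of 8242 exon bases of ERCC5 belong also to the readthrough gene BIVM-ERCC5 and 1572 to BIVM, on the same strand. BIVM had 7.877, 7.795 and 7.68 in untreated cells. It had 8.026, 8.05 and 7.891 at 24 h of H2O2 and 8.008, 7.857 and 7.81 at 24 h of NCS. At 8 h of NCS, where ERCC5 also rose, BIVM had 7.658, 7.861 and 7.697. The part of BIVM in the ERCC5 values was not tested. BIVM-ERCC5 was listed at 0 in every library, so how reads over the shared exons were counted is uncertain, and the value of ERCC5 may not hold all of its reads.

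ERCC1, the partner of ERCC4 in the 5′ cut, rose at 4 h of H2O2 by 0.11 (SE 0.019, adjusted p = 6.19e-05) and at 8 h of NCS by 0.071 (adjusted p = 0.00818). The call at 8 h of NCS was lost with library medians aligned (adjusted p = 0.197) and in a fit of only the groups compared (adjusted p = 0.0516). At 8 h of H2O2 ERCC1 did not pass (0.044, adjusted p = 0.0771). It passed there without the second H2O2 replicate (0.053, adjusted p = 0.0443) or untreated replicate 3 (adjusted p = 0.0452). ERCC1 also passed there with quantile normalization (adjusted p = 0.0259), all listed genes tested (adjusted p = 0.0391) or no mean-variance trend (adjusted p = 0.0311). Its libraries had 11.28, 11.27 and 11.27 at 4 h of H2O2, above every other library, against 11.14, 11.16 and 11.18 in untreated cells. FOSB, an early response transcription factor that lies within the span of ERCC1 on the other strand and shares 0 exon bases with it, had 12.16, 11.64 and 11.62 in the same libraries against 6.95, 6.88 and 6.95 in untreated cells. ERCC1 also shares 1593 of its 5576 exon bases with CD3EAP on the other strand. The strand setting of the counting is not given in the sources used here, and the part of these genes in the ERCC1 values was not tested. XPA, which checks the lesion, had library values between 6.902 and 7.202 and passed against untreated cells in 1 comparison, H2O2 at 8 h, where it fell by 0.15 (SE 0.052, adjusted p = 0.0264). Its libraries there had 6.94, 6.90 and 6.99 against 7.06, 7.12 and 7.11 in untreated cells. The difference was -0.13 without H2O2 replicate 2 (adjusted p = 0.0862), and it also missed the threshold without H2O2 replicate 1 (adjusted p = 0.0606) and without untreated replicate 2 (adjusted p = 0.0803) or 3 (adjusted p = 0.0687).

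Setting H2O2 against NCS at matched times asks how far the same genes differ between an oxidant and a drug that breaks DNA. At 4 h, 6 of the 9 genes were lower with H2O2 than with NCS and 1 was higher, against 18% and 26.3% of all genes. At 8 h, 6 were lower and 0 higher (15.4% and 18.7% of all genes), and at 24 h, 3 were lower and 1 higher (10.9% and 11%). At 4 h the H2O2 minus NCS difference was -0.51 for XPC (SE 0.038, adjusted p = 4.23e-09), -0.38 for POLH, -0.29 for ASCC3, -0.21 for ERCC2, -0.20 for DDB2 and -0.18 for ERCC5. ERCC1 was 0.059 higher (adjusted p = 0.0153), a call that was lost without the second NCS replicate of that time (0.048, adjusted p = 0.079) and with library medians aligned (adjusted p = 0.118). At 8 h the gap of DDB2 was the widest, at -0.49 (SE 0.034, adjusted p = 7.95e-09). That of ERCC2 was -0.37, that of XPC -0.28, that of ERCC5 -0.24, and those of ASCC3 and XPA were -0.20 each. POLH differed by -0.009 at that time, with a 95% interval from -0.062 to 0.044. Without the second replicate of H2O2 at 8 h the same counts held, 6 lower and 0 higher, with differences of -0.47 for DDB2 and -0.18 for XPA (adjusted p = 0.0219), and that of POLH was 0.022 (adjusted p = 0.548). At 24 h XPC was higher with H2O2, by 0.18 (adjusted p = 0.00192), and DDB2, POLH and ERCC2 were lower, with differences of -0.17, -0.15 and -0.14. The call of ERCC2 was lost without the third replicate of H2O2 (adjusted p = 0.085) or of NCS (adjusted p = 0.052) at 24 h, and that of DDB2 in a fit of only the groups compared (adjusted p = 0.0533). The 24 h gap of DDB1 was -0.068 (adjusted p = 0.0526), and those of ASCC3 and ERCC1 were -0.075 (adjusted p = 0.0627) and -0.048 (adjusted p = 0.0749). With library medians aligned each of these gaps passed, with adjusted p-values of 0.00592, 0.00983 and 0.0408 in the same order.

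**Figure D3:**
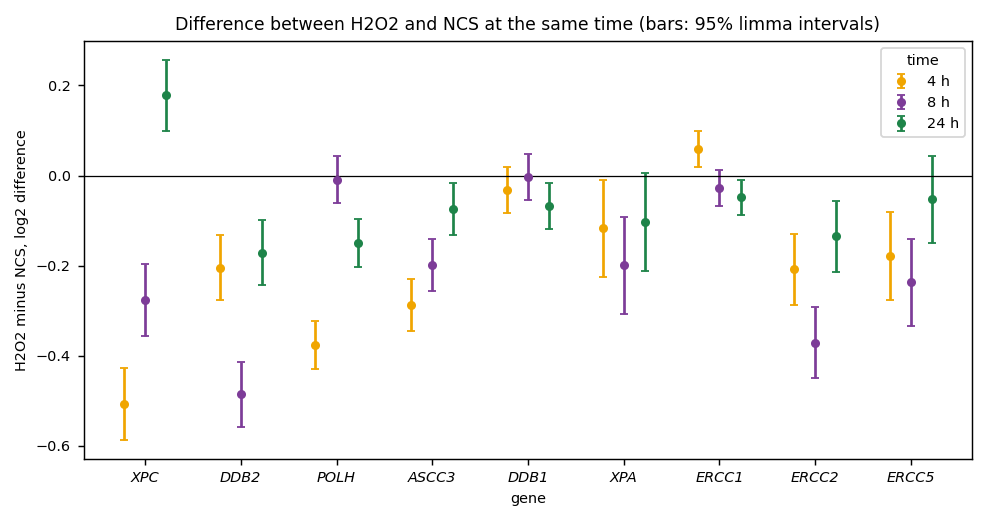
Points are log2 differences of mean rLog values, H2O2 minus NCS, at 4 h (orange), 8 h (purple) and 24 h (green) for each gene (n = 3 libraries against 3), and bars are 95% limma intervals, not adjusted for the number of genes. XPC moves from -0.51 at 4 h to 0.18 at 24 h, while DDB2 stays below 0 at all 3 times with its lowest value at 8 h.

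Whether the gap between the treatments changed with time was tested as an interaction in the same fit. Between 4 and 24 h it changed for 4 of the 9 genes (39.4% of all genes), between 4 and 8 h for 5 (32.7%) and between 8 and 24 h for 5 (21.4%). In at least 1 of these tests it changed for 6 members and for 51.3% of all genes. XPC had the largest change, of 0.68 from 4 to 24 h (SE 0.053, adjusted p = 1.94e-08), and the sign of its gap turned. POLH closed its gap by 0.37 between 4 and 8 h (adjusted p = 4.68e-07) and the difference then changed by -0.14 to 24 h (adjusted p = 0.00816). DDB2 did the opposite, with a difference that dropped by 0.28 to 8 h (adjusted p = 0.000213) and then moved up by 0.32 to 24 h (adjusted p = 0.000164). Its change from 4 to 24 h was 0.033, with an adjusted p of 0.629. For ERCC2 the difference dropped by 0.16 and then moved up by 0.24, and the first of these calls was lost when any one of 3 libraries was left out, the second replicate of H2O2 at 4 h, the first of H2O2 at 8 h or the second of NCS at 8 h (adjusted p = 0.0632, 0.0736 and 0.0512). Without the second replicate of H2O2 at 8 h, the gap changed for 6 genes between 4 and 8 h and for 4 between 8 and 24 h.

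Among the other genes of nucleotide excision repair, falls outnumbered rises in all 6 comparisons with untreated cells. Of 45 such genes, 6 rose and 19 fell with H2O2 at 4 h, where 26.2% of all genes rose and 19.7% fell. At 8 h the counts were 5 and 23 (18.8% and 18.6% of all genes), and at 24 h they were 4 and 27 (20.2% and 19.9%). With NCS at 4 h, 3 rose and 6 fell, near the shares of all genes (7.47% and 9.72%). At 8 h of NCS 4 rose and 20 fell (10.5% and 13.3%), and at 24 h 5 rose and 28 fell (19.6% and 18.4%). The median difference at 24 h was -0.149 with H2O2 and -0.152 with NCS, against medians within 0.01 of 0 over all genes. Among the partners of XPC and DDB2, RAD23B, which binds XPC, fell by 0.32 with H2O2 and by 0.21 with NCS at 24 h. CUL4B, a scaffold of the ligase that holds DDB2, fell with both treatments at 4 and 8 h (by 0.16 and 0.25 with H2O2) and rose at 24 h, by 0.44 with H2O2 and 0.30 with NCS. ERCC6, the CSB protein that starts repair at stalled RNA polymerase, fell by 0.62 with H2O2 at 4 h (adjusted p = 3.82e-10), by 0.37 at 8 h and by 0.17 at 24 h, and with NCS its differences of -0.051, -0.093 and -0.082 did not pass. TCEA1, the elongation factor TFIIS, rose with H2O2 at 24 h by 0.43, while with NCS the difference was -0.058. Of the 9 other TFIIH subunits, 1 rose and 2 fell with H2O2 at 24 h, and with NCS 2 rose and 4 fell. With H2O2 GTF2H1 rose by 0.18 and GTF2H2 fell by 0.58 at that time. GTF2H2 has near-identical copies in the genome, so its value is uncertain.

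The largest falls were in the genes of the last step. Of 18 genes for gap filling and ligation, 15 fell at 24 h of each treatment, with a median of -0.798 for H2O2 and -0.833 for NCS, where 19.9% and 18.4% of all genes fell. RFC3, a subunit of the clamp loader, fell by 1.35 and 1.46, and the polymerase subunits POLE, POLE2, POLD1 and POLD3 fell by 1.04 to 1.27 over both treatments. POLD4, a small subunit of polymerase delta, was the only one of the 18 to rise at 24 h, by 0.59 with H2O2 and 0.71 with NCS. PCNA, the sliding clamp, rose by 0.34 and 0.41 with H2O2 at 4 and 8 h and by 0.55 and 0.31 with NCS, and fell by 0.38 and 0.40 at 24 h. The single-strand binding proteins RPA1, RPA2 and RPA3 fell at 24 h, by 0.78, 0.68 and 0.60 with H2O2 and by 0.76, 0.76 and 0.53 with NCS. Many of these genes also serve DNA replication, and all 16 genes of a proliferation list fell at the same time, with medians of -1.672 and -1.77 and MKI67 fell by 2.51 with H2O2 and fell by 2.73 with NCS. The part of cell cycle arrest in the falls was not tested. The 9 members had medians of 0.045 with H2O2 and 0.11 with NCS at 24 h.

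The partners of POLH in lesion bypass moved in both directions. Of 9 translesion genes, 1 rose and 4 fell with H2O2 at 4 h, where 26.2% of all genes rose and 19.7% fell, and 1 rose and 1 fell with NCS, near the shares of all genes (7.47% and 9.72%). The one that rose with NCS was REV3L, the catalytic subunit of polymerase zeta, by 0.25 at 4 h, 0.25 at 8 h and 0.14 at 24 h, and with H2O2 it fell by 0.14 at 4 h and rose by 0.15 and 0.20 later. RAD18, the ligase that recruits POLH to stalled forks by modifying PCNA, fell at 24 h by 0.99 with H2O2 and 0.92 with NCS. PRIMPOL, a repriming polymerase that the files list as CCDC111, fell by 0.53 and 0.56 with H2O2 at 8 and 24 h and by 0.40, 0.34 and 0.61 with NCS at 4, 8 and 24 h. The differences of RAD18 with NCS at 4 h (0.013) and of PRIMPOL with H2O2 at 4 h (-0.008) did not pass.

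**Figure D4:**
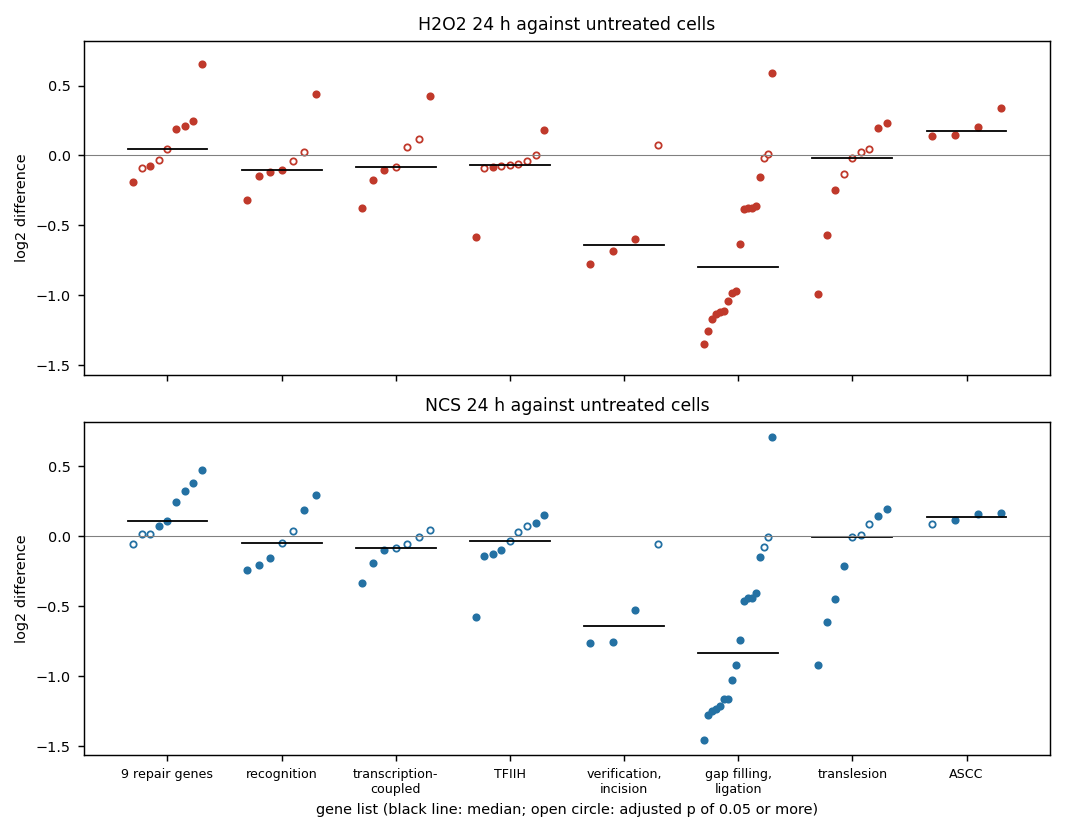
Each point is the log2 difference of a gene at 24 h of H2O2 (top, red) or NCS (bottom, blue) against untreated cells, sorted within lists, with filled points for an adjusted p under 0.05 and a black line at the median of the list. The gap filling list has medians of -0.798 and -0.833, and the 9 repair genes have medians of 0.045 and 0.11.

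Over the 21 libraries, XPC was correlated with ASCC3 (Pearson's r = 0.829), ERCC5 (0.757) and DDB2 (0.751), and POLH with XPC at 0.364 and with DDB2 at 0.303. These are descriptions over libraries that fall into 7 groups and share their normalization. Among 11672 genes with a mean value of at least 5, members left out, the profiles most like XPC were those of FDXR (r = 0.966), NRG1 (0.965), PLXNB2 (0.947), TAP1 (0.928) and LYPLA2 (0.925). Those most like DDB2 were PCBP4 (0.943), HEMK1 (0.932), ASL (0.929), INSC (0.924) and RABGGTA (0.922). POLH was closest to SYNM (0.919), FLNC (0.907), SGK223 (0.899), CTPS (0.894) and RRP8 (0.894). The 5 nearest genes of the 3 members had no gene in common.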

How the data were processed

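From TruSeq Stranded mRNA libraries, the authors made HISAT2 alignments and htseq-count gene counts, and deposited log2 values, the rLog transformation of DESeq2, with hg19 as the build in the processing notes. Annotation and strand setting are not given in the sources used here. The values were used as deposited. Of 23368 genes, 3674 at 0 in every library were left out. The fit used limma 3.58.1 in R 4.3.3, over 7 groups with a mean-variance trend. Samples were grouped by the treatment and time in the labels. The members and lists were chosen with earlier results of these data known. Genes named were drawn from the 9 members, list genes that passed with an absolute difference over 0.58 (for repair lists also the 3 largest in a comparison), the 5 most like XPC, DDB2 and POLH, and overlapping genes. Other list genes are covered by counts and medians, and results that rest on one further gene are not reported here. UVSSA and PRIMPOL were found as KIAA1530 and CCDC111 through RefSeq synonyms. The fit was tested on simulated data. The alternatives were other scalings, filters, call limits and fits, and each library left out. Same-numbered replicates had a mean correlation of deviations of 0.0274, and in 0 of 9 comparisons was every pair over 0.1, so numbers were not taken to pair samples. Python 3.11.15 served for gene positions and figures (numpy 2.4.6, matplotlib 3.10.9, pandas 2.3.3).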

Additional observations from a re-analysis of the deposited data

Results flagged for a closer look

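The gap between H2O2 and NCS changed with time for 6 of the 9 genes in at least 1 of the 3 interaction tests, as it did for 51.3% of all genes. From 4 to 24 h the change in the H2O2 minus NCS difference was 0.684 for XPC, 0.226 for POLH, 0.213 for ASCC3 and -0.107 for ERCC1. From 4 to 8 h it was 0.23 for XPC, -0.282 for DDB2, 0.367 for POLH, -0.086 for ERCC1 and -0.163 for ERCC2. From 8 to 24 h it was 0.454 for XPC, 0.315 for DDB2, -0.141 for POLH, 0.124 for ASCC3 and 0.236 for ERCC2. The change of ASCC3 from 8 to 24 h was lost when any one of 5 libraries was left out (H2O2 replicate 2 at 8 h or 3 at 24 h, NCS replicate 3 at 8 h or 1 or 2 at 24 h), with adjusted p-values from 0.0515 to 0.0745, and with library medians aligned (adjusted p = 0.152). That of ERCC1 from 4 to 8 h was lost with library medians aligned (adjusted p = 0.234) and without the second replicate of NCS at 4 h (adjusted p = 0.0514). That of ERCC2 from 4 to 8 h was lost when any one of 3 libraries was left out (H2O2 replicate 2 at 4 h or 1 at 8 h, NCS replicate 2 at 8 h, adjusted p = 0.0512 to 0.0736).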

How the results depend on the processing

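No difference of a single member that passed the test, in the reported fit or an alternative, changed sign under an alternative. Over 9 members and 12 comparisons, each library left out in turn gave 25 of 810 values that no longer passed and 14 that newly passed. Of 108 values, 5 no longer passed and 6 newly passed with aligned medians, and 2 and 11 did so with quantile normalization. With a limit of 0.58, 1 member rose in H2O2 at 24 h and in NCS at 4 and 8 h and 0 in every other count, and with a limit of 1 all counts were 0. Aligned medians gave 1 rise in H2O2 at 4 h, 0 genes higher in H2O2 than NCS at 4 h and 6 lower at 24 h. Quantile normalization gave 4 rises in H2O2 at 4 h and 1 fall at 24 h, a minimum mean of 5 gave 5 genes lower in H2O2 than NCS at 24 h, and a fit of only the groups compared gave 1 fall in H2O2 at 4 h. These are not all of the counts that changed. With quantile normalization XPC (0.127, adjusted p = 0.00916) and DDB2 (0.12, adjusted p = 0.00588) rose in H2O2 at 4 h. DDB1 also rose in H2O2 at 24 h, ERCC1 in H2O2 at 8 h and in NCS at 4 h, and ERCC2 in NCS at 8 h. XPA and ERCC5 then fell in H2O2 at 4 h, and the fall of ERCC2 there was lost. A minimum mean of 5 added rises of XPC in H2O2 at 4 h and of ERCC2 in NCS at 8 h. The cause was not tested. With each library left out, the count of falls in H2O2 was 1 to 3 (4 h) or 1 to 2 (8 h, 24 h), and that in NCS at 24 h was 0 to 1. Genes higher in H2O2 than NCS at 4 h ranged from 0 to 1. The replicate block, used although the numbers were not taken to pair samples, changed 1 single call. That of DDB1 in H2O2 against NCS at 24 h (-0.068) then passed with an adjusted p of 0.0271. It also passed with aligned medians (-0.094, adjusted p = 0.00592), with a minimum mean of 5 (adjusted p = 0.0322) and in a fit of only the groups compared (adjusted p = 0.0464). This adds DDB1 to the genes counted as lower with H2O2 at that time. The shrinkage of rLog values and the unknown depth limit what can be said of small differences.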
